A study of Mus musculus with 12 samples.

Results

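The comparison described here is the effect of transverse aortic constriction (TAC) on left ventricular transcripts, averaged over a pair of mouse genotypes. It uses all 12 of the 12 RNA sequencing libraries of the series, and it was defined by the labels alone, as the mean of the T497A TAC and WT TAC groups minus the mean of the T497A sham and WT sham groups, with equal weights. Each group holds 3 libraries of left ventricle from mice operated on at 10 weeks of age and sampled 1 week later, at 11 weeks. In TAC the aortic arch is narrowed against a needle, here of 27 gauge, so that the ventricle ejects against a raised pressure, while a sham operation leaves the vessel as it was. WT is the wild type, and T497A is a point mutant of Prkca, the gene of protein kinase C alpha, named for an alanine in place of a threonine. The labels give neither the sex, the strain nor the zygosity of the mice. The sample titles number the hearts 1 to 3 within each group, but no label states that each library came from a separate animal. The p-values therefore describe variation among libraries, which may be technical in part. Exchanging the genotype labels of whole groups within a surgery leaves the averaged contrast as it is, whereas the responses under each label and their difference would change.

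The libraries held 58932759 to 72594085 counts each. Of 55401 genes, 17699 had enough counts to be tested. The TAC libraries of WT had scaling factors (TMM, which corrects for a few abundant transcripts taking up reads) of 1.13 to 1.21, against 0.910 to 0.988 in the other 9 libraries. On the first principal component, which held 43.5% of the variance, T497A TAC lay at -4.03 to 7.96 and WT TAC at 65.7 to 96.6, with WT TAC 2 the farthest out, while all 6 sham libraries lay at -41.4 to -39.4. Mitochondrially encoded genes took 19.2 to 19.8% of counts in T497A TAC and 9.67 to 14.7% in WT TAC, against 16.0 to 17.3% in T497A sham and 19.1 to 21% in WT sham. The T497A sham libraries stood apart in sex-linked transcripts: Xist, which inactivates an X chromosome in female cells, was at 0.683, 0.385 and 0.315 CPM in T497A TAC and 0.722, 0.315 and 0.504 CPM in WT TAC, against 215, 159.9 and 176 CPM in T497A sham and 0.751, 0.624 and 0.575 CPM in WT sham. Ddx3y, a Y-linked helicase gene, was at 73.6 to 95.8 CPM in the TAC libraries and at 0.0999 to 0.396 CPM in T497A sham, against 104 to 108 CPM in WT sham. The averaged comparison therefore also sets 6 libraries with Y-linked transcripts against 3 with and 3 without them. Counts of list members are therefore also given without the T497A sham group, that is, as both TAC groups against WT sham. In that comparison the TAC side holds both genotypes and the sham side WT alone, so a difference between genotypes also enters it. It rests on 9 libraries, and a call can be lost for that reason too. Although a label calls the cells cardiomyocytes, the endothelial marker Pecam1 (183 to 259 CPM) and the fibroblast marker Pdgfra (45.3 to 78.8 CPM) were present in every library, so the values are described as those of ventricular tissue. Prkca itself (ENSMUSG00000050965.14, chromosome 11, 107933387 to 108343928, minus strand) stood at 50.3, 44.7 and 43.7 CPM in T497A TAC and 49.2, 50.7 and 51.0 CPM in WT TAC, against 35.7, 34.7 and 31.1 CPM in T497A sham and 47.4, 43.5 and 42.2 CPM in WT sham. T497A sham was the lowest group, and the averaged rise of 0.32 ± 0.05 was not called without it (0.12, adjusted p = 0.13). Counts per gene cannot show a base change, and the levels are thus no check of the genotype.

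Pressure overload makes cardiomyocytes enlarge, and they take up part of the transcript programme of the fetal ventricle, with natriuretic peptides, skeletal actin and the slow myosin. In the same tissue interstitial fibroblasts lay down collagen, non-muscle cells divide, and the muscle's use of fatty acids declines. How far each of these programmes moved 1 week after surgery is described below as the averaged log2 fold change with its standard error, where a positive value means higher after TAC. A gene is said to have risen or fallen where the adjusted p over all genes was below 0.05. By this measure 4383 genes rose, which is 24.8% of the genes tested, and 4175 fell, which is 23.6%. At least 2-fold, 1128 rose and 426 fell. Without the T497A sham group 3738 rose and 3490 fell. All 6 TAC libraries lay above all 6 sham libraries for 1659 genes (9.37%) and below them for 1487 (8.40%). The median log2 fold change over all genes was 0.0098. Without the TMM factors that median was 0.19, and 7216 genes then rose against 2112 that fell. Changes are therefore relative to that shift, which also turns the sign of the median of some lists.

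**Figure D1:**
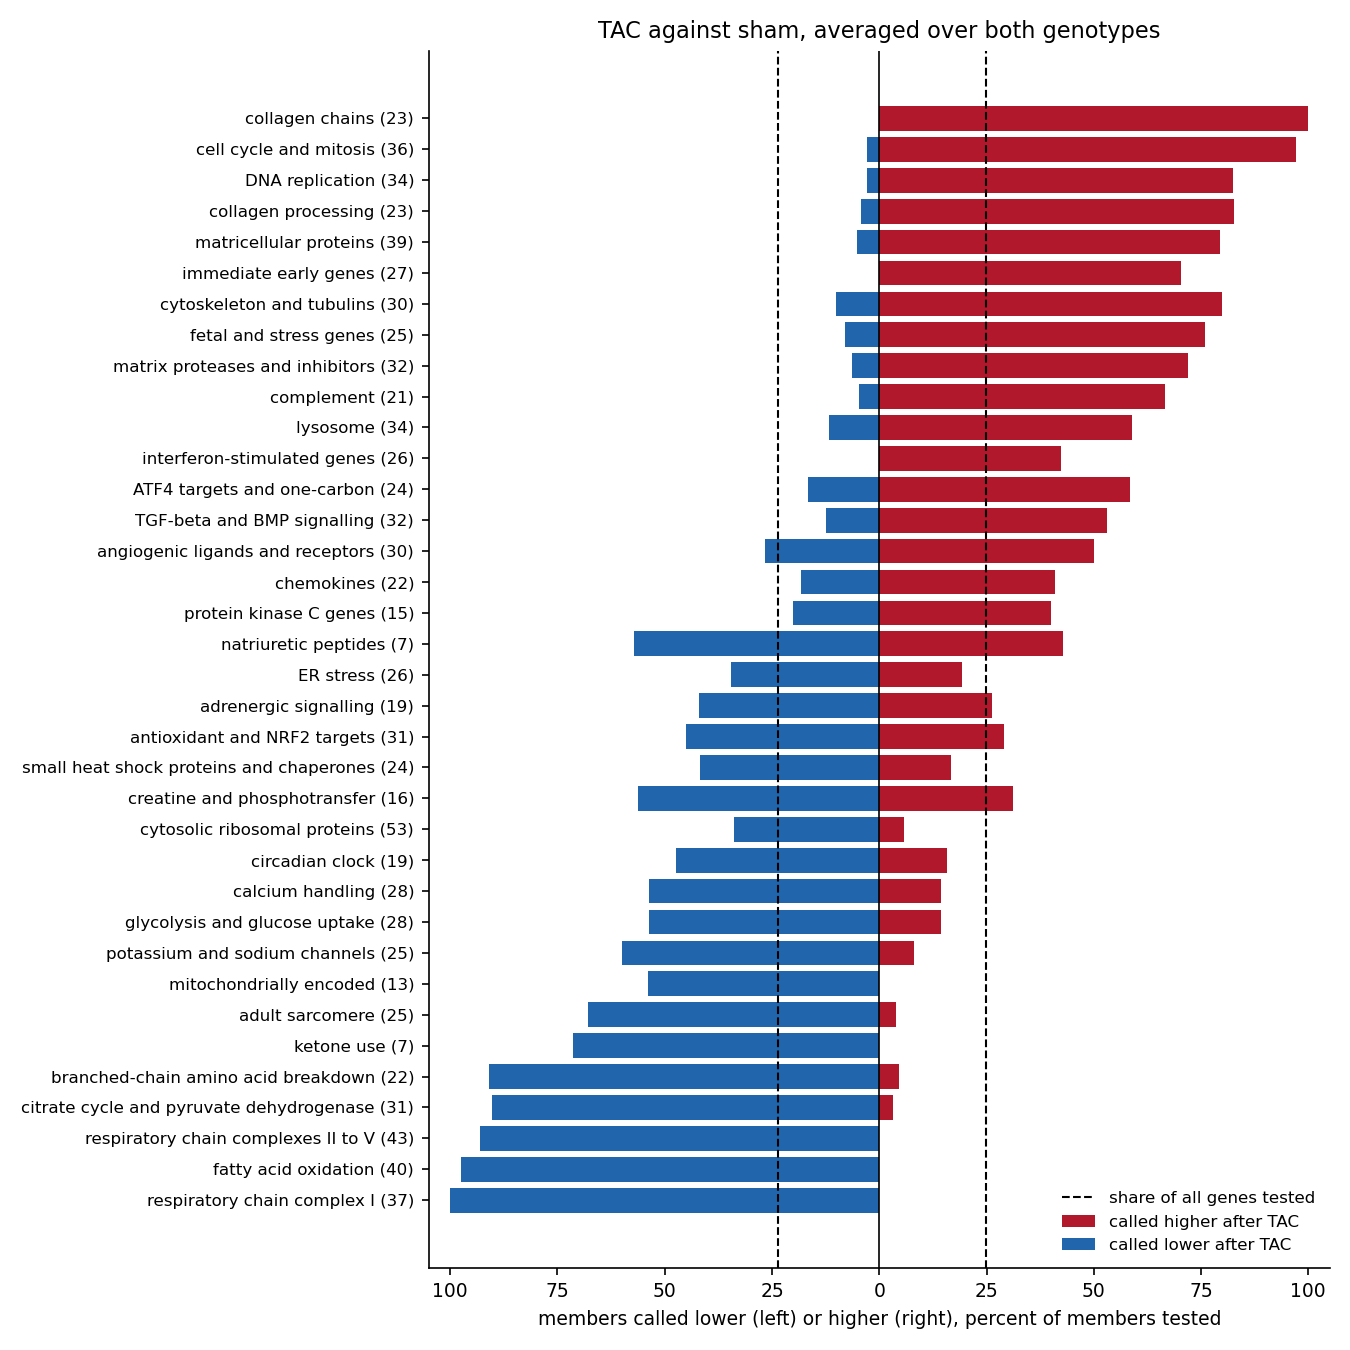
Share of the tested members of each gene list that were lower (bars to the left) or higher (bars to the right) after TAC in the averaged comparison, in percent, with the number of members tested in brackets. Dashed lines mark the shares over all genes tested, 23.6% lower and 24.8% higher. All 23 collagen chains were higher, and all 37 nuclear-encoded subunits of complex I were lower.

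Transcripts of the fetal and stress programme rose broadly. Of 25 members of that list, 19 rose and 2 fell, with a median of 1.23, and without the T497A sham group the counts were 18 higher and 1 lower. The rise was unequal between the labels, with 13 higher and 1 lower within T497A (median 0.67) and 18 and 2 within WT (median 1.64). The interaction of genotype and surgery was called for 16 members (64%), negative for 12 and positive for 4, against 29.5% of all genes. Without TMM factors it was called for 17 (68%), against 38.8% of all genes. Acta1, the skeletal muscle actin (ENSMUSG00000031972.5, chromosome 8, 123891769 to 123894751, minus strand), stood at 1514, 1696 and 1733 CPM in T497A TAC and 2619, 2456 and 2679.9 CPM in WT TAC, against 115, 277 and 352 CPM in T497A sham and 292, 269.7 and 307 CPM in WT sham. The lowest TAC library lay above the highest sham library, and the change was 2.95 ± 0.24, adjusted p = 8.7e-06. Nppb, the precursor of B-type natriuretic peptide (ENSMUSG00000029019.8, chromosome 4, 147985788 to 147987205, plus strand), stood at 305, 396 and 425 CPM in T497A TAC and 504, 599 and 471 CPM in WT TAC, against 33.4, 45.7 and 28.9 CPM in T497A sham and 162, 90.4 and 124 CPM in WT sham. Here too the surgeries did not overlap (2.72 ± 0.18, adjusted p = 1.6e-06), although the sham groups lay apart from each other. Ankrd1, a cofactor that responds to stretch (ENSMUSG00000024803.9, chromosome 19, 36111961 to 36120099, minus strand), followed the same order of groups, at 4416 ± 113 CPM in T497A TAC and 5126 ± 24.2 CPM in WT TAC, against 867 ± 96.0 CPM in T497A sham and 1575 ± 207 CPM in WT sham (SD, n = 3 each), with a change of 2.03 ± 0.07, adjusted p = 3.3e-10.

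Other members of this list separated the surgeries less evenly. Nppa, the precursor of atrial natriuretic peptide, rose by 3.03 ± 0.27, but T497A TAC 3 at 206 CPM lay below T497A sham 3 at 241 CPM, and T497A sham 3 also held the most Myl7, the atrial light chain, at 261 CPM against 6.64 to 84.5 CPM in the other 11 libraries. The interaction for Nppa was -3.69 (T497A minus WT), and the part of atrial tissue in its levels was not tested. Myh7, the slow myosin heavy chain, rose by 2.41 ± 0.35 and also overlapped, with 724 to 2334 CPM in the TAC libraries and 181 to 755 CPM in the sham libraries. Synpo2l and Xirp2, both proteins of the muscle's Z disc and intercalated disc regions, rose by 1.23 ± 0.06 and 1.13 ± 0.06, and Gdf15, a stress-induced hormone, by 2.21 ± 0.12. The members that fell were Myh7b (-0.59 ± 0.09), a further myosin heavy chain gene, and Fhl2 (-0.36 ± 0.10), a LIM domain protein of heart muscle. Fhl2 was not called without the T497A sham group (-0.28, adjusted p = 0.062).

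**Figure D2:**
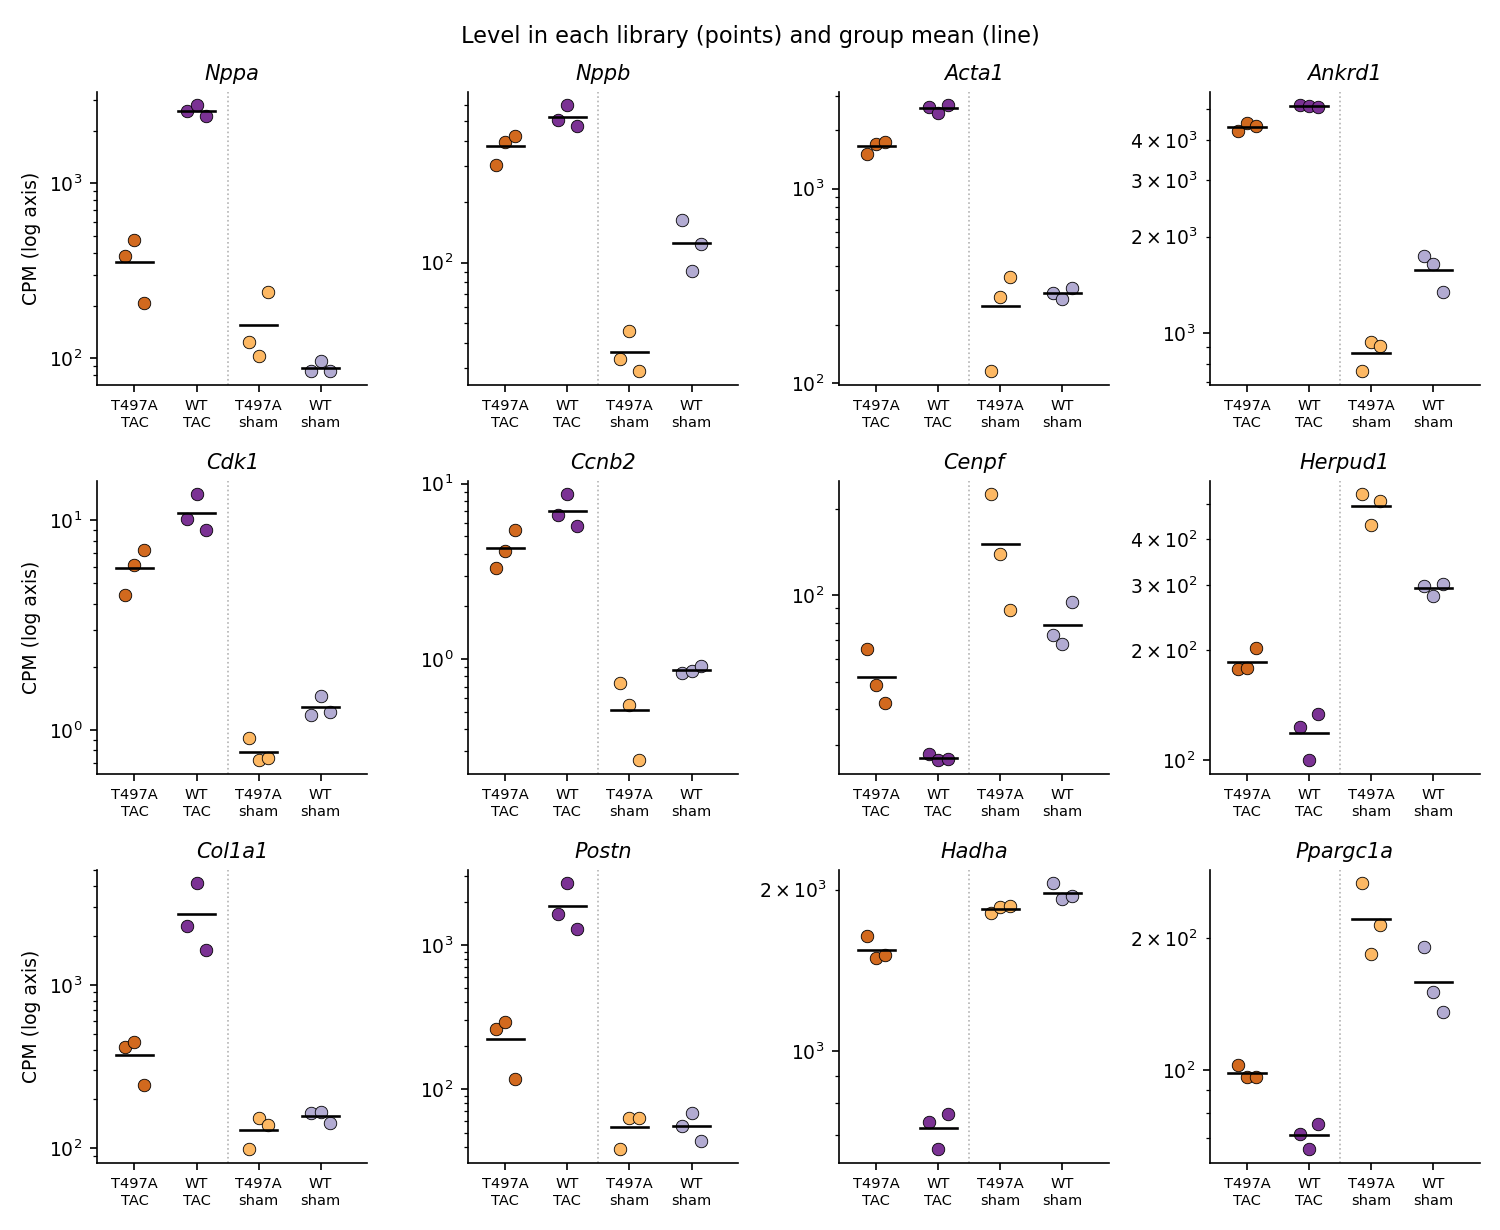
CPM (logarithmic axis) of 12 genes in each library, as points, with group means as lines, in the order T497A TAC, WT TAC, T497A sham, WT sham. Acta1, Nppb, Ankrd1, Cdk1, Ccnb2, Col1a1 and Postn were higher in every TAC library than in any sham library, Cenpf, Herpud1, Hadha and Ppargc1a were lower, and Nppa overlapped.

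Natriuretic peptide handling did not move as a block. Of 7 genes tested, Nppa, Nppb and the receptor Npr1 (0.23 ± 0.06), through which both peptides signal, rose. Corin, the protease that cleaves the atrial precursor, fell, and stood at 246, 227 and 221 CPM in T497A TAC and 194, 153 and 208 CPM in WT TAC, against 502, 410.0 and 407 CPM in T497A sham and 315, 313 and 343 CPM in WT sham. No TAC library reached the lowest sham value, and the change was -0.87 ± 0.08, adjusted p = 9.0e-07. Furin, which cleaves the B-type precursor, was at -0.29 ± 0.05. Npr3, the clearance receptor, was at -0.62 ± 0.19, and Npr2, the receptor of the C-type peptide, at -0.12 ± 0.04. The call of Npr2 was lost in 17 of the 25 alternatives (adjusted p up to 0.13 where it kept its sign) and that of Npr3 in 6, among them those without T497A sham 3, WT TAC 2 or WT TAC 3, each of which left 2 of the list's 4 falls. Without the T497A sham group Furin (-0.15, adjusted p = 0.093), Npr2 (0.085) and Npr3 (0.12) were not called, and the median of the list changes sign without TMM factors (-0.12 with them, 0.07 without).

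Among the pathway lists, the highest median was that of cell cycle and mitosis genes, of which 35 of 36 rose and 1 fell, with a median of 2.42. Without the T497A sham group the counts were 35 higher and 1 lower and the median was 2.03. Cdk1, the kinase that drives entry into mitosis (ENSMUSG00000019942.13, chromosome 10, 69335146 to 69352938, minus strand), stood at 4.40, 6.09 and 7.24 CPM in T497A TAC and 10.2, 13.3 and 8.95 CPM in WT TAC, against 0.914, 0.716 and 0.732 CPM in T497A sham and 1.18, 1.45 and 1.22 CPM in WT sham. Every TAC library was above every sham library. The change was 2.99 ± 0.15, adjusted p = 5.3e-09. Ccnb2, a B-type cyclin that binds Cdk1, was at 4.31 ± 1.10 CPM in T497A TAC and 7.03 ± 1.51 CPM in WT TAC, against 0.517 ± 0.236 CPM in T497A sham and 0.870 ± 0.0392 CPM in WT sham (SD, n = 3 each), a change of 3.03 ± 0.21. Ccna2, the cyclin of S phase and early mitosis, rose by 2.83 ± 0.17. Kif2c, a motor that takes apart spindle microtubules, rose by 3.30 ± 0.27, and Anln, a scaffold of the contractile ring, by 2.45 ± 0.14. In 30 of the members all TAC libraries lay above all sham libraries.

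Within the labels the median of the mitosis list was 2.36 in T497A and 2.42 in WT. The interaction of genotype and surgery was called for 1 of the 36 members, while it was called for 29.5% of all genes. That member was Ccnd1, the cyclin D of the G1 phase, which was named after its values were seen (1.75 ± 0.38, T497A minus WT, adjusted p = 0.0077). For Cdk1 the interaction was -0.17 ± 0.30. The mean log2 CPM of the list was low in the sham libraries, at 0.16 to 1.20. With levels this low and errors this wide, differences between the labels can be missed. The few calls therefore do not show that the responses were equal. The levels themselves were not the same. Relative to the mean of the 6 sham libraries, the mean log2 CPM of the list was 1.37 to 2.07 in T497A TAC and 2.20 to 2.69 in WT TAC, against -0.70 to 0.02 in T497A sham and 0.30 to 0.34 in WT sham. The response under a label thus depends on which sham group it is set against. Without TMM factors the interaction was called for 3 members, and for 38.8% of all genes.

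**Figure D3:**
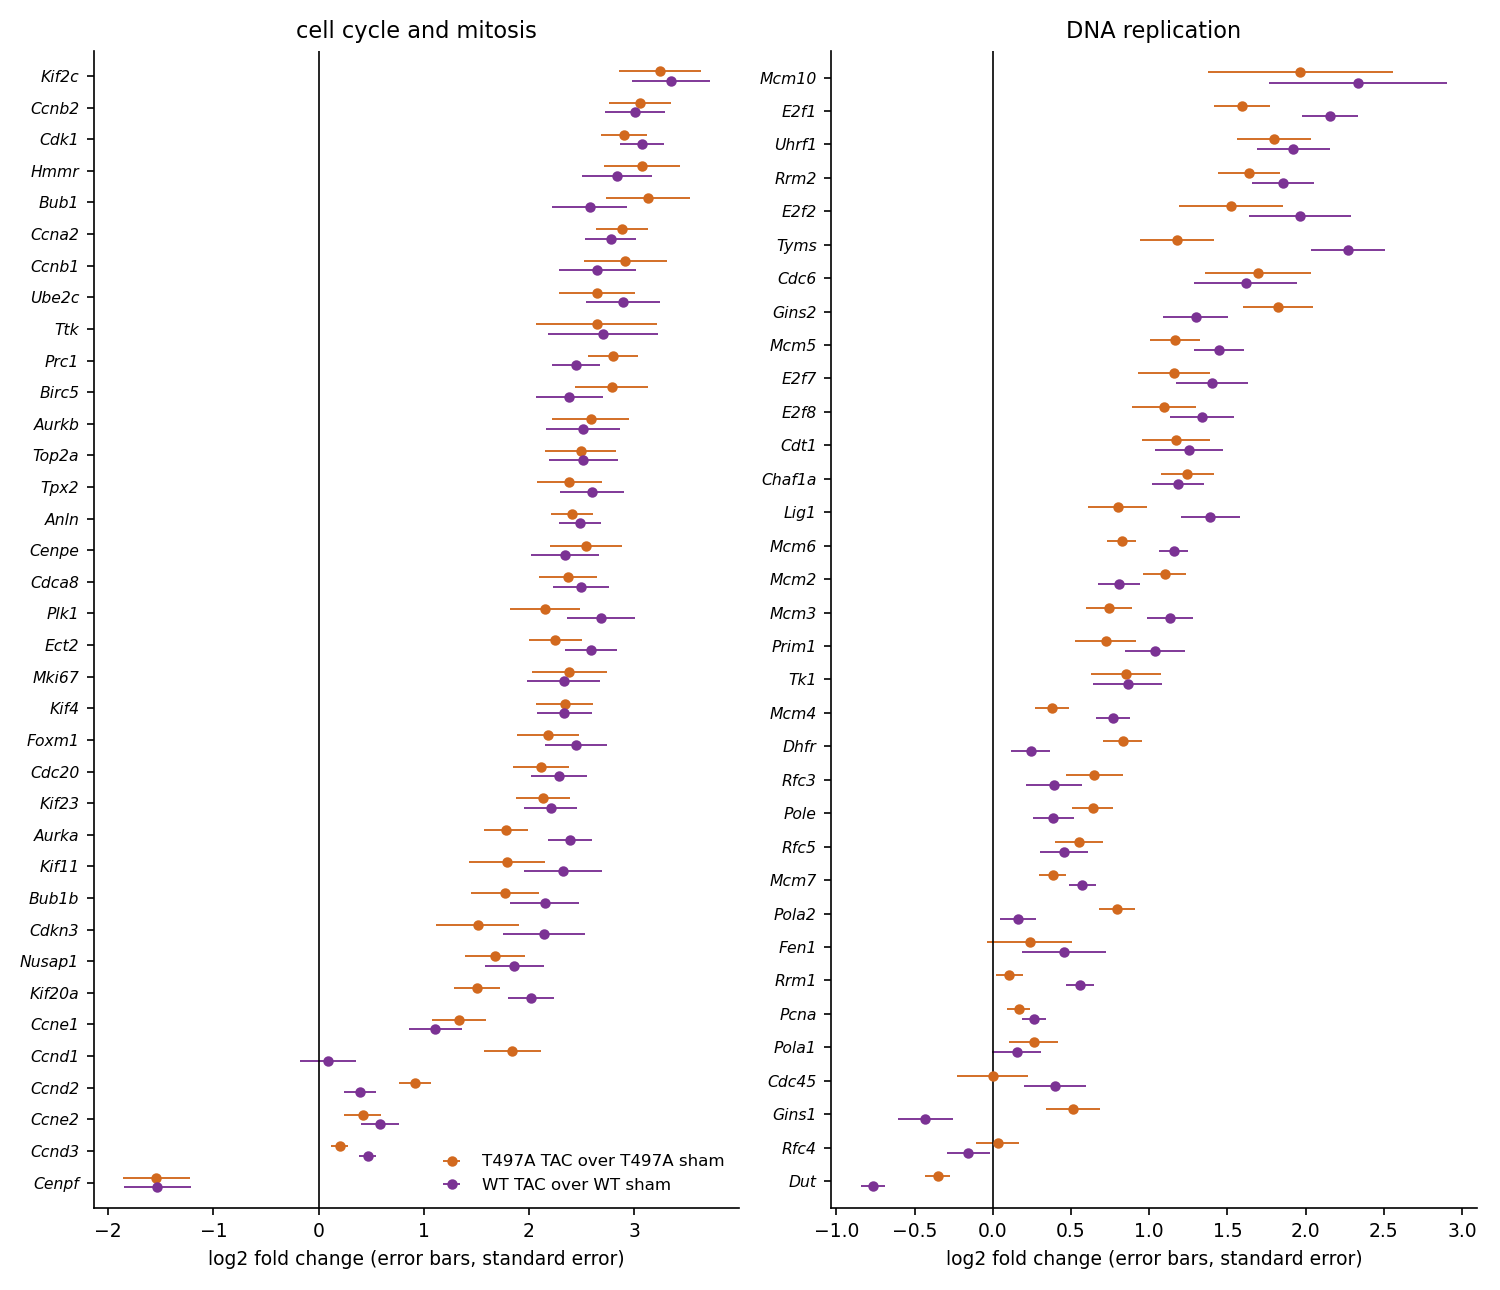
Log2 fold change of each tested member of the mitosis list (left) and the DNA replication list (right), T497A TAC over T497A sham in orange and WT TAC over WT sham in purple, with standard errors as bars. Cenpf and Dut lie at the lower end of their lists, and Ccnd1 is the member of the mitosis list for which the interaction was called.

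Cenpf, a large protein of the kinetochore, was the member of the mitosis list that fell. It stood at 64.7, 48.8 and 42.1 CPM in T497A TAC and 28, 26.5 and 26.9 CPM in WT TAC, against 225, 139.5 and 88.6 CPM in T497A sham and 72.8, 67.7 and 95.0 CPM in WT sham. The highest TAC library lay below the lowest sham library, and the change was -1.54 ± 0.22, adjusted p = 4.1e-04. Within each label it was -1.54 ± 0.32 in T497A and -1.53 ± 0.32 in WT. The promoters of Cenpf and of members that rose are shown because they hold the same short elements. Genes of late cell cycle phases often carry a CHR element (letters TTTGAA) and CCAAT boxes (letters CCAAT) near their start. In RefSeq promoter windows of 300 bases on GRCm38.p6, 250 before the start and 50 after it, the CHR letters were found on either strand in 23 of 31 windows of the mitosis list (74.2%), against 17.9% of all 32851 windows, and the CCAAT letters in 80.6%, against 37.4%. Among windows of genes tested the shares were 12.6% for CHR and 37.1% for CCAAT letters. The 31 windows belong to 28 of the 36 members. In the sequences, 5′ to 3′ along the gene, capitals mark CHR letters, CCAAT letters and, in Mcm6, an element bound by E2F factors, each in either orientation and without overlap between them.
Cdk1 (chr10:69352863-69353162, minus strand): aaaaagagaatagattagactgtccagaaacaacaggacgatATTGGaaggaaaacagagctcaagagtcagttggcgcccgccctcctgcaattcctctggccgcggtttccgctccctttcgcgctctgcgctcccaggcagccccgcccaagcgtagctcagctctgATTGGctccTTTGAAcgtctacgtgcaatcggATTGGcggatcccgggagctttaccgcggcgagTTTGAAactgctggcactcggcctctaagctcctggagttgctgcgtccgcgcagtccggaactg
Ccnb2 (chr9:70421505-70421804, minus strand): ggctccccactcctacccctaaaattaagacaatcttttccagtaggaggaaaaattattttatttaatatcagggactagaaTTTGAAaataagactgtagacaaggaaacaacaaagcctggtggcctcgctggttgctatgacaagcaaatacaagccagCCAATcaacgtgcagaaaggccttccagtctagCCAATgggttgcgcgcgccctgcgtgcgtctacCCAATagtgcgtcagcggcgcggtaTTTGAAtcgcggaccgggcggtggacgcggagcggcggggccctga
Cenpf (chr1:189688037-189688336, minus strand): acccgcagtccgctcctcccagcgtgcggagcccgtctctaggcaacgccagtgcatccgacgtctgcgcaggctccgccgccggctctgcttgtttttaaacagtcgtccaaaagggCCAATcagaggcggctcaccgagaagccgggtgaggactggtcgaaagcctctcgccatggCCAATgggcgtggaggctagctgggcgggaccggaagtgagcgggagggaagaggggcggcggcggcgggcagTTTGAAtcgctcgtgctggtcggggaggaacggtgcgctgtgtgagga
Mcm6 (chr1:128359656-128359955, minus strand): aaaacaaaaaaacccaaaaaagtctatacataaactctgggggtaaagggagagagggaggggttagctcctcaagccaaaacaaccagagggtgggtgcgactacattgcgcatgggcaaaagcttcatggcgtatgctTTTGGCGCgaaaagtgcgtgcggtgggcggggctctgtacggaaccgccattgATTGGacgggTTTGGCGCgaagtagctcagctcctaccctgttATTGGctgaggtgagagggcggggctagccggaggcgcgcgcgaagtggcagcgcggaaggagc
The window of Cenpf holds 1 run of CHR letters and 2 of CCAAT letters, that of Cdk1 holds 2 and 3, and that of Ccnb2 holds 2 and 3. A match of letters is a description and shows no binding.

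DNA replication genes had a lower median: 28 of 34 rose and 1 fell, with 0.91 (25 higher and 1 lower without the T497A sham group). Mcm6, a subunit of the replicative helicase, stood at 15.3, 15.8 and 16.0 CPM in T497A TAC and 22.2, 26 and 21.3 CPM in WT TAC, against 9.68, 8.01 and 8.92 CPM in T497A sham and 10.6, 9.94 and 10.6 CPM in WT sham, without overlap, a change of 0.99 ± 0.07, adjusted p = 6.1e-08. Mcm5, of the same helicase, rose by 1.31 ± 0.11. Rrm2, a subunit of the enzyme that makes deoxynucleotides, rose by 1.75 ± 0.14, and E2f1, a transcription factor that acts on these genes, by 1.87 ± 0.13. The letters TTTCCCGC or TTTGGCGC, forms of the E2F element, lay in 10 of 35 windows of this list (28.6%). They lay in 1.56% of all windows and 2.59% of the windows of genes tested. The 35 windows belong to 29 genes. Dut, which removes dUTP from the nucleotide pool, was the member that fell, at 16.7 ± 0.477 CPM in T497A TAC and 12.8 ± 0.907 CPM in WT TAC, against 21.4 ± 0.597 CPM in T497A sham and 21.7 ± 1.69 CPM in WT sham (SD, n = 3 each; -0.56 ± 0.06). Markers of macrophages and fibroblasts, cells that can divide in this tissue, also rose, as described further on, and their part in the mitotic transcripts was not tested.

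Immediate early genes, which respond to stimuli within minutes to hours, rose in 19 of 27 members and fell in 0, with a median of 0.60 (16 higher and 0 lower without the T497A sham group). Egr2 and Egr3, zinc finger factors of the same family, rose by 3.20 ± 0.32 and 2.81 ± 0.25. Egr3 stood at 6.45, 8.89 and 13.2 CPM in T497A TAC and 7.52, 12.9 and 5.07 CPM in WT TAC, against 0.931, 0.990 and 1.16 CPM in T497A sham and 1.89, 1.32 and 1.54 CPM in WT sham, so every TAC library was above every sham library. Egr1, their best known relative, rose by 1.36 ± 0.08, and Jun, a subunit of AP-1, by 0.85 ± 0.06. For Egr1 and Jun the response was larger in T497A (1.93 ± 0.11 and 1.23 ± 0.08) than in WT (0.78 ± 0.11 and 0.47 ± 0.08), with interactions of 1.15 ± 0.16 and 0.76 ± 0.11 and adjusted p of 1.3e-04 and 2.6e-04. Egr1 was at 41.6 ± 2.30 CPM in T497A TAC and 41.0 ± 4.67 CPM in WT TAC, against 10.9 ± 1.34 CPM in T497A sham and 23.9 ± 2.97 CPM in WT sham (SD, n = 3 each). Jun was at 151 ± 10.4 CPM in T497A TAC and 107 ± 4.15 CPM in WT TAC, against 64.1 ± 6.33 CPM in T497A sham and 77.2 ± 6.78 CPM in WT sham (SD, n = 3 each). For Egr1 the T497A sham libraries lay below the WT sham libraries.

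Matrix genes rose widely. All 23 collagen chain genes tested rose, 18 of them without overlap between the surgeries, with a median of 1.78 (22 higher and 0 lower without the T497A sham group). Col1a1, the main chain of fibrillar collagen I, stood at 417, 449 and 244 CPM in T497A TAC and 2290.0, 4169.5 and 1626 CPM in WT TAC, against 98.5, 152 and 138 CPM in T497A sham and 165, 166 and 143 CPM in WT sham. WT TAC was the highest group, T497A TAC lay between it and both sham groups, and the averaged change was 2.80 ± 0.27, adjusted p = 2.9e-05. Col5a3, a chain of the fibril-regulating collagen V, changed more evenly, by 1.78 ± 0.07, with an interaction of 0.14 ± 0.13 (adjusted p = 0.49). It stood at 52.2 ± 4.40 CPM in T497A TAC and 81.4 ± 5.32 CPM in WT TAC, against 14.5 ± 1.55 CPM in T497A sham and 24.8 ± 2.81 CPM in WT sham (SD, n = 3 each). T497A lay below WT within each surgery, so the small interaction of Col5a3 depends on the level of T497A sham. Col4a1 and Col4a2, the main chains of basement membranes, rose by 1.62 ± 0.07 and 1.45 ± 0.06, and Col6a3, of the microfibrillar collagen VI, by 1.57 ± 0.08. The interaction was called for 19 of the 23 chains (82.6%), each with a smaller rise in T497A and with the same count without TMM factors. Over all genes it was called for 29.5%, and for 38.8% without TMM factors. The medians of the chains were 1.05 in T497A and 2.43 in WT.

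Collagen processing enzymes rose in 19 of 23 cases and fell in 1 (median 0.70, with 19 higher and 1 lower without the T497A sham group). Of these genes 7 rose and 1 fell within T497A, against 20 and 1 within WT. Loxl2, which cross-links collagen, rose by 2.22 ± 0.15. The procollagen proteinases Bmp1 and Adamts2 rose by 1.09 ± 0.09 and 1.95 ± 0.13, and Pcolce, which enhances Bmp1, by 1.21 ± 0.08. P3h4, of the collagen prolyl hydroxylase family, fell (-0.45 ± 0.08). Matricellular proteins sit in the matrix and signal to cells, and their list here also holds structural matrix genes such as Fbn1. Its members rose in 31 of 39 cases and fell in 2 (median 1.42, with 30 higher and 1 lower without the T497A sham group). They rose in 19 cases within T497A and 35 within WT, with 1 fall under each label. Postn, the periostin of activated fibroblasts, rose by 3.54 ± 0.31, Fbn1, the fibrillin of elastic microfibrils, by 2.61 ± 0.14, and Sparc, a collagen-binding protein, by 1.90 ± 0.11. Ltbp1 and Fbln1 fell (-0.32 ± 0.04 and -0.41 ± 0.12), and Fbln1 was not called without the T497A sham group (-0.05, adjusted p = 0.80).

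Matrix proteases and their inhibitors rose in 23 of 32 cases and fell in 2 (21 higher and 1 lower without the T497A sham group). Adamts4, which cleaves large proteoglycans, stood at 2.24 ± 0.187 CPM in T497A TAC and 5.01 ± 2.43 CPM in WT TAC, against 0.213 ± 0.0437 CPM in T497A sham and 0.944 ± 0.149 CPM in WT sham (SD, n = 3 each; 2.89 ± 0.23). The gelatinase Mmp2 rose by 1.48 ± 0.09, and the plasminogen activator Plat by 0.85 ± 0.07. Timp3 and Timp4, inhibitors of metalloproteinases, fell (-0.22 ± 0.05 and -1.12 ± 0.26), and Timp3 was not called without the T497A sham group (0.02, adjusted p = 0.82). Among TGF-beta and BMP genes 17 of 32 rose and 4 fell (19 higher and 3 lower without the T497A sham group). Within T497A 6 of them rose and 5 fell, while within WT 19 rose and 3 fell. The T497A counts were not far from the shares of all genes within that label, 12.9% higher and 11.4% lower. Within WT those shares were 25.9% and 24%. The ligands Tgfb1 and Tgfb2 rose by 0.79 ± 0.06 and 1.38 ± 0.09. Tgfb1 changed by 0.85 ± 0.08 in T497A and 0.74 ± 0.08 in WT, whereas Tgfb2 changed by 0.84 ± 0.12 in T497A and 1.93 ± 0.13 in WT, with a called interaction for Tgfb2 (adjusted p = 4.6e-04). Ccn2, a matricellular growth factor downstream of this pathway, rose by 1.61 ± 0.22 and overlapped between the surgeries. Fibroblast markers rose alongside, 17 of 20, with 1 that fell (Gsn, -1.07 ± 0.10), or 17 higher and 1 lower without the T497A sham group, and their summed level was 3432 to 4751 CPM in T497A TAC and 10343 to 20256 CPM in WT TAC, against 3130.2 to 4025 CPM in T497A sham and 3099 to 3496 CPM in WT sham. Pdgfra, their defining marker, stood at 45.3 to 78.8 CPM in the TAC libraries and 53.1 to 59.3 CPM in the sham libraries. It was at 0.17 ± 0.07, adjusted p = 0.047, with overlap between the surgeries. That call was lost in 16 of the 25 alternatives, 10 of them the omission of a single library, with an adjusted p of up to 0.22, and in 1 of them, without the T497A sham group, it was at 0.22 (adjusted p = 0.068). In bulk tissue more cells of a type and more RNA per cell cannot be told apart, and the part of fibroblast number in the matrix genes was not tested.

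**Figure D4:**
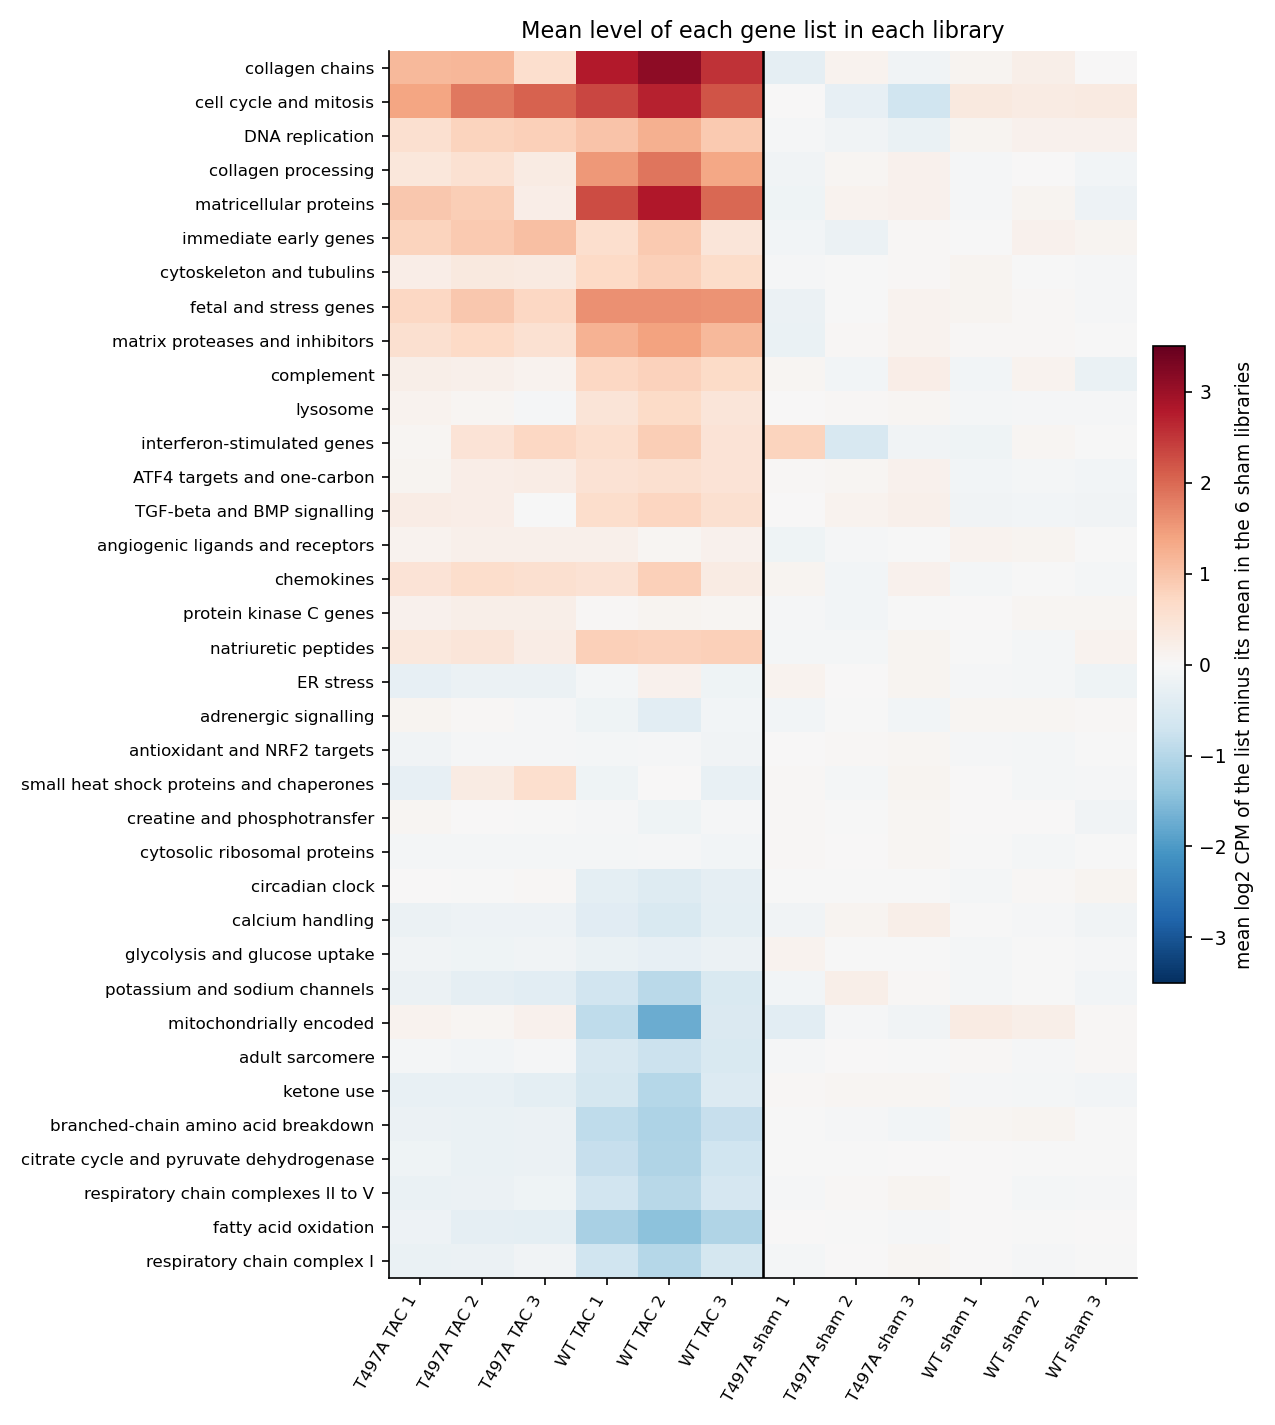
Mean log2 CPM of each gene list in each library, minus its mean in the 6 sham libraries, on a colour scale from -3.5 to 3.5 (red higher, blue lower than sham), with the 6 TAC libraries left of the line. The mitosis list reached 1.37 to 2.69 in the TAC libraries, and WT TAC 2 had the strongest colours in most lists.

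Nuclear-encoded transcripts of fatty acid oxidation and the respiratory chain fell almost without exception. In fatty acid oxidation 39 of 40 genes fell and 0 rose (median -0.78), with the same counts without the T497A sham group. Hadha, of the mitochondrial trifunctional protein (ENSMUSG00000025745.12, chromosome 5, 30118304 to 30155162, minus strand), stood at 1641, 1489 and 1511 CPM in T497A TAC and 739, 657 and 765 CPM in WT TAC, against 1809.7, 1852 and 1867 CPM in T497A sham and 2055, 1917 and 1946 CPM in WT sham. The T497A TAC libraries lay below the sham range and the WT TAC libraries below those, for a change of -0.85 ± 0.05, adjusted p = 1.8e-08. Eci1, an isomerase of unsaturated fatty acids, fell (-0.91 ± 0.05), as did Slc25a20, the carnitine carrier (-0.76 ± 0.05). Cpt1b, the muscle form of the enzyme that admits fatty acids to mitochondria, fell (-0.57 ± 0.09), while its liver form Cpt1a was the gene of the list that was not called (-0.09 ± 0.07, adjusted p = 0.31). All 37 nuclear-encoded subunits of complex I fell, over a narrow range (-0.64 to -0.31), and 40 of 43 genes of complexes II to V fell with 0 that rose, and again the counts were the same without the T497A sham group. The exceptions were Cox4i2 (0.14 ± 0.09), Cox6a1 (0.13 ± 0.05) and Cox8a (-0.04 ± 0.04), subunit forms of cytochrome oxidase. Without TMM factors 3 genes of complexes II to V rose and 38 fell. Cox7a1, the heart and muscle form of another subunit of that enzyme, fell (-0.96 ± 0.07).

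Further steps of fuel use fell as well. In the citrate cycle and pyruvate dehydrogenase list 28 of 31 genes fell, for example Idh3g (-0.64 ± 0.05), a subunit of isocitrate dehydrogenase, and 1 rose, the pyruvate dehydrogenase kinase Pdk3 (0.75 ± 0.13), with 1 higher and 29 lower without the T497A sham group. In branched-chain amino acid breakdown 20 of 22 fell, for example Bckdhb (-0.88 ± 0.05) of the branched-chain ketoacid dehydrogenase, and 1 rose, the cytosolic aminotransferase Bcat1 (0.58 ± 0.20), whose call was lost in 7 of the 25 alternatives, with 0 higher and 21 lower without the T497A sham group. Of 7 genes of ketone use 5 fell and 0 rose (1 higher and 5 lower without the T497A sham group), among them Oxct1, the enzyme that commits ketone bodies to oxidation (-0.47 ± 0.06). In creatine metabolism and phosphotransfer 9 of 16 fell and 5 rose, with 6 higher and 7 lower without TMM factors and 5 higher and 9 lower without the T497A sham group. The rises in that list were near the share over all genes (24.8%), of which 23.6% fell. Within glucose use 15 of 28 fell and 4 rose, with a median of -0.15 that changes sign without TMM factors (0.03, with 10 higher and 10 lower), and 4 higher and 11 lower without the T497A sham group. The muscle forms Pfkm (-0.66 ± 0.05) and Pygm (-0.70 ± 0.05) and the insulin-regulated transporter Slc2a4 (-0.78 ± 0.06) fell, while the platelet form Pfkp (0.59 ± 0.06) and the lactate exporter Slc16a3 (1.30 ± 0.15) rose.

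With TMM factors the interaction was called for 35 of the 40 fatty acid oxidation genes and 34 of the 37 complex I genes, against 29.5% of all genes. Without them it was called for 32 (80%) and 17 (45.9%), and for 19 of the 43 genes of complexes II to V (44.2%). The share of all genes was then 38.8%, so the respiratory chain lay near it under that scaling. The medians were -0.24 in T497A and -1.28 in WT for fatty acid oxidation. Within T497A 11 complex I genes fell and 0 rose, against 37 and 0 within WT. Ppargc1a, a coactivator of mitochondrial genes, stood at 103, 96.4 and 96.8 CPM in T497A TAC and 71.8, 66.0 and 75.6 CPM in WT TAC, against 267, 184 and 214 CPM in T497A sham and 191, 151 and 136 CPM in WT sham. The surgeries did not overlap, and the change was -1.16 ± 0.10, adjusted p = 2.0e-06, with -1.17 ± 0.14 in T497A, -1.16 ± 0.14 in WT and an interaction of -0.01 ± 0.20. T497A TAC lay above WT TAC, so this interaction depends on the level of T497A sham. Of the 13 mitochondrially encoded transcripts 7 fell in the average and 0 rose, with 0 higher and 8 lower without the T497A sham group and 0 higher and 3 lower without TMM factors. In 0 of them did all TAC libraries lie below all sham libraries, and the medians were 0.31 in T497A and -1.10 in WT. Cardiomyocyte markers fell alongside the metabolic genes, 13 of 15 with 1 that rose (0 higher and 12 lower without the T497A sham group), and their summed level was 88264 to 94039.9 CPM in T497A TAC and 49198 to 60393 CPM in WT TAC, against 106706 to 109447 CPM in T497A sham and 101448 to 108984 CPM in WT sham. The part of cardiomyocyte number in these falls was not tested.

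**Figure D5:**
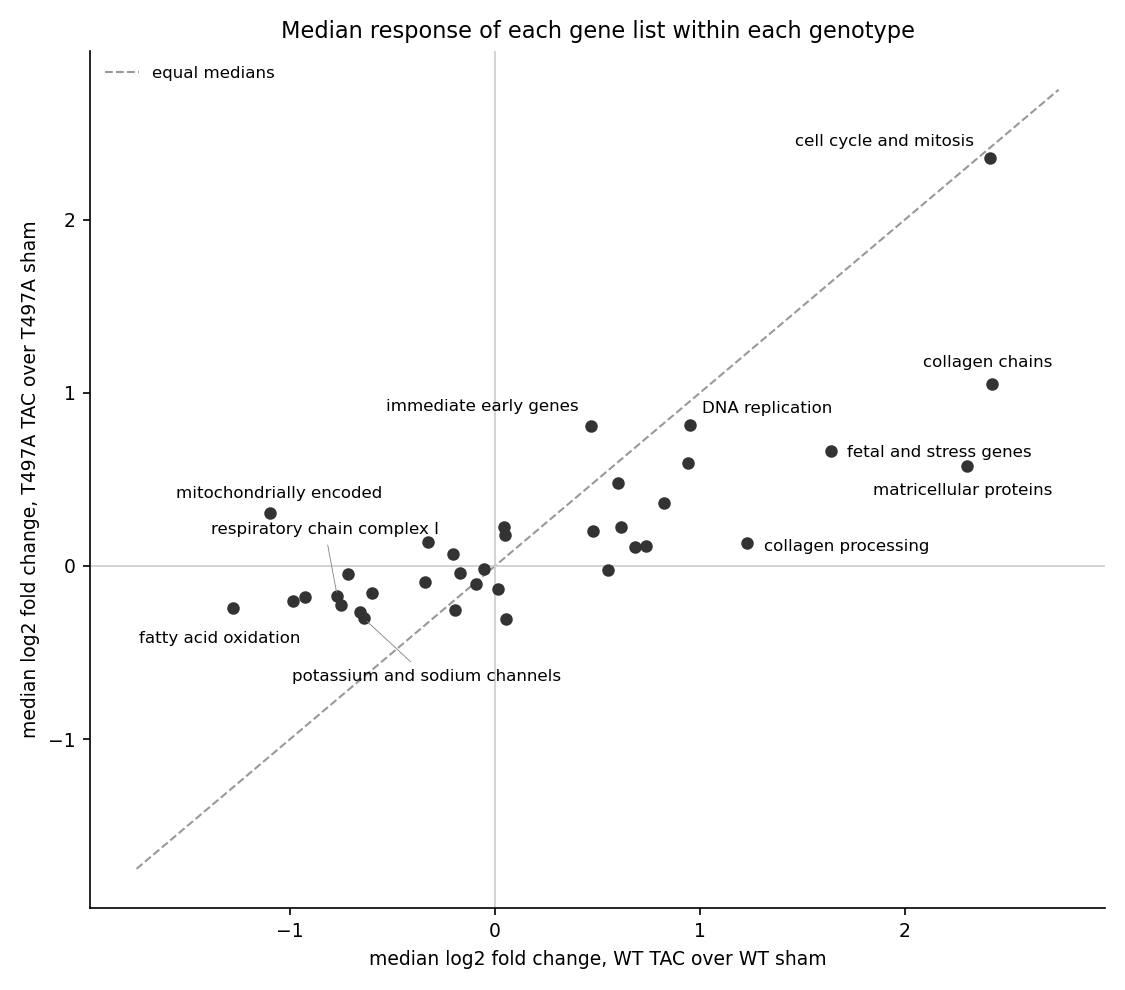
Median log2 fold change of each gene list within T497A (vertical axis) against that within WT (horizontal axis), 1 point a list, with the line of equal medians dashed. The mitosis list (2.36 in T497A and 2.42 in WT) lies near the line, while the collagen chains (1.05 and 2.43) and fatty acid oxidation (-0.24 and -1.28) lie nearer to 0 on the T497A axis.

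Genes of contraction and excitation fell in smaller numbers. Of 25 adult sarcomere genes 17 fell and 1 rose (median -0.30), with 5 higher and 12 lower without TMM factors and 1 higher and 18 lower without the T497A sham group. Under the labels 4 rose and 8 fell in T497A, and 1 rose and 21 fell in WT. Among all genes 12.9% rose and 11.4% fell in T497A, and 25.9% rose and 24% fell in WT. Myh6, the fast myosin heavy chain of the adult mouse ventricle, fell (-0.75 ± 0.07), as did Tnni3, the adult cardiac troponin I (-0.94 ± 0.08). Mybpc3 was the gene that rose (0.15 ± 0.05, adjusted p = 0.024), and its call was lost in 7 of the 25 alternatives, among them that without the T497A sham group (adjusted p = 0.30). In calcium handling 15 of 28 fell and 4 rose, with 9 higher and 13 lower without TMM factors and 4 higher and 14 lower without the T497A sham group. Atp2a2, which pumps calcium back into the sarcoplasmic reticulum, stood at 14666, 14142 and 14624 CPM in T497A TAC and 9548, 7735 and 10088 CPM in WT TAC, against 20476, 23013 and 21886 CPM in T497A sham and 20761, 20009 and 20948 CPM in WT sham. All TAC libraries lay below all sham libraries (-0.88 ± 0.07, adjusted p = 2.5e-07). Its inhibitor Pln also fell (-0.66 ± 0.08), as did the release channel Ryr2 (-0.54 ± 0.05) and Hrc, a calcium-binding protein of the same compartment (-0.99 ± 0.07). Fkbp1b, a subunit bound to the release channel, was at 1.15 ± 0.38, at about 1 CPM or less in most libraries, and its call was lost in 5 of the 25 alternatives. Without WT sham 1 or WT sham 2 the list had 2 rises.

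Among genes of potassium and sodium channels 15 of 25 fell and 2 rose (median -0.57, and 3 higher and 18 lower without the T497A sham group). Kcnj3, a subunit of the acetylcholine-activated potassium channel, stood at 85.5, 78.2 and 76.9 CPM in T497A TAC and 34.9, 34.3 and 36.2 CPM in WT TAC, against 155, 159.8 and 158 CPM in T497A sham and 116, 129 and 112 CPM in WT sham, with every TAC library below every sham library and a change of -1.37 ± 0.04, adjusted p = 2.0e-10. Its partner Kcnj5 also fell (-0.67 ± 0.05), as did the background channel Kcnk3 (-0.59 ± 0.06) and Kcnv2, a modifier of voltage-gated channels (-2.46 ± 0.22). Kcna4, a voltage-gated potassium channel, was among those that rose (0.70 ± 0.16), and it was not called without the T497A sham group (adjusted p = 0.12). In adrenergic signalling 5 of 19 rose and 8 fell, with 9 higher and 8 lower without TMM factors and 4 higher and 9 lower without the T497A sham group. The number that rose was near the share over all genes (24.8%), whereas 23.6% of all genes fell. The inhibitory G protein subunit Gnai2 rose by 0.45 ± 0.04, and the cyclase Adcy6 and the phosphodiesterase Pde4d fell (-0.65 ± 0.06 and -0.77 ± 0.10), with interactions of -0.12 ± 0.11 and 0.19 ± 0.19 that were not called.

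Among protein kinase C genes, Prkca included, 6 of 15 rose and 3 fell, with 10 higher and 2 lower without TMM factors and 4 higher and 2 lower without the T497A sham group. Over all genes 24.8% rose and 23.6% fell, so the number that fell was near that share. Prkcb and Prkcd, further diacylglycerol-dependent isoforms, rose by 1.17 ± 0.17 and 0.91 ± 0.12, while Prkce, the epsilon isoform, fell (-0.45 ± 0.06). Prkcb stood at 3.42 to 7.72 CPM in the TAC libraries and 1.58 to 2.81 CPM in the sham libraries, and Prkcd at 16.4 to 41.2 CPM in the TAC libraries and 11.8 to 12.9 CPM in the sham libraries, without overlap in either case.

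Several secreted proteins were among the largest averaged rises. Cthrc1, a collagen-associated secreted protein, stood at 4.37, 5.08 and 0.715 CPM in T497A TAC and 53.5, 115 and 31.1 CPM in WT TAC, against 0.131, 0.350 and 0.333 CPM in T497A sham and 0.375, 0.183 and 0.101 CPM in WT sham. Its rise was 5.92 ± 0.69. Igfbp2, which binds insulin-like growth factors, rose by 5.22 ± 0.50, with 5.35 ± 0.80 in T497A and 5.08 ± 0.62 in WT. C1qtnf3 (4.59 ± 0.71, not called with limma voom), Col9a2 (3.89 ± 0.19), Serpinb1c (3.85 ± 0.34) and the orphan receptor Gpr176 (3.65 ± 0.29) followed. Among genes called in the same direction within each label, Mxd3, a MAX-binding factor, rose by 3.42 ± 0.30 and Col26a1 by 3.43 ± 0.18. The largest falls were those of Retnla, a resistin-like protein made by alternatively activated macrophages (-2.96 ± 0.19), the carboxylesterase Ces1d (-2.51 ± 0.12), the kinase Sbk3 (-2.51 ± 0.21), Kcnv2, the desmosomal linker Ppl (-2.41 ± 0.11), Rp1 (-2.35 ± 0.29), Pfkfb1 (-2.25 ± 0.16), a regulatory enzyme of glycolysis, and the water channel Aqp4 (-2.04 ± 0.19). Retnla stood at 2.22, 1.6 and 2.32 CPM in T497A TAC and 0.241, 0.210 and 0.227 CPM in WT TAC, against 11.8, 6.25 and 8.80 CPM in T497A sham and 2.39, 3.60 and 3.48 CPM in WT sham, with all TAC libraries below all sham libraries. Further falls within both labels were those of Sfrp5, a secreted Wnt inhibitor (-1.69 ± 0.24), Phkg1, the muscle catalytic subunit of phosphorylase kinase (-1.87 ± 0.17), the amylase Amy1 (-1.79 ± 0.13) and Cngb3, a subunit of cyclic nucleotide-gated channels (-2.03 ± 0.18).

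Stress pathways did not move in a single direction. In the list of the endoplasmic reticulum (ER) 9 of 26 genes fell and 5 rose, where 23.6% of all genes fell and 24.8% rose. Its median of -0.09 changes sign without TMM factors (0.10, with 8 higher and 6 lower). Its counts were 6 higher and 7 lower without the T497A sham group, and 3 genes rose without any 1 of T497A TAC 2, T497A TAC 3, T497A sham 2 or WT sham 3. Herpud1, which takes part in the removal of misfolded ER proteins, stood at 177, 178 and 202 CPM in T497A TAC and 123, 99.9 and 133 CPM in WT TAC, against 531, 438 and 508 CPM in T497A sham and 299, 281 and 303 CPM in WT sham. Every TAC library lay below every sham library (-1.36 ± 0.07, adjusted p = 8.8e-09), and the interaction was -0.10 ± 0.14. T497A lay above WT within each surgery, so this interaction depends on the level of T497A sham. The chaperones Hspa5 (-0.58 ± 0.05) and Canx (-0.39 ± 0.04) also fell, whereas Edem1 (0.65 ± 0.09) and the stress sensor Eif2ak3 (0.43 ± 0.07) rose. Of the targets of ATF4 and of one-carbon synthesis 14 of 24 rose and 4 fell (14 higher and 3 lower without the T497A sham group), for example Aldh18a1, of proline synthesis (0.92 ± 0.07), and the amino acid transporter Slc7a5 (0.80 ± 0.08). The list of NRF2 targets was mixed, with 9 higher and 14 lower of 31, and its median of -0.07 also changes sign without TMM factors (0.11). Its counts were 9 higher and 13 lower without the T497A sham group. The rises among NRF2 targets were near the share over all genes (24.8%), of which 23.6% fell. Gstm1 (-1.03 ± 0.05) and Gsta3 (-1.67 ± 0.11), glutathione transferases, fell while Gpx1 (0.64 ± 0.04), a glutathione peroxidase, rose.

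Chaperones of the heat shock family fell in 10 of 24 cases and rose in 4, where 23.6% of all genes fell and 24.8% rose. Their median was -0.12, and 0.06 without TMM factors. Without TMM factors the counts were 8 higher and 4 lower, and without the T497A sham group 1 higher and 5 lower. The number of rises was 8 without T497A TAC 1 and 2 without T497A TAC 3 or WT sham 2. Hspd1, the mitochondrial chaperonin, fell (-0.61 ± 0.05). Cytosolic ribosomal protein genes fell in 18 of 53 cases and rose in 3, but this count was 32 higher and 1 lower without TMM factors and 5 higher and 5 lower without the T497A sham group, and its median was -0.05 with TMM factors and 0.14 without, so the list had no direction that held under every scaling. Rpl3l, the muscle form of Rpl3, fell in each of these settings, and it stood at 170.4, 163 and 178 CPM in T497A TAC and 56.5, 68.6 and 53.5 CPM in WT TAC, against 333, 307 and 323 CPM in T497A sham and 251, 259 and 253 CPM in WT sham (-1.50 ± 0.06, adjusted p = 4.4e-10). Rpl3 itself rose by 0.52 ± 0.04. Cytoskeletal genes rose in 24 of 30 cases and fell in 3, namely Tuba4a (-1.26 ± 0.06), Tuba8 (-1.18 ± 0.08) and Tubb4b (-0.76 ± 0.07). Without the T497A sham group these counts were 24 higher and 3 lower. Vash1, which removes the last tyrosine of alpha tubulin, rose by 1.26 ± 0.07, and the beta tubulin Tubb3 by 1.88 ± 0.13.

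Immune and vascular lists rose in part. Macrophage markers rose in 17 of 23 cases and fell in 3 (17 higher and 1 lower without the T497A sham group), and their summed level was 485 to 519 CPM in T497A TAC and 716 to 1101 CPM in WT TAC, against 435 to 508 CPM in T497A sham and 365 to 428 CPM in WT sham. Trem2, a lipid receptor, rose by 2.26 ± 0.18, and Ccr2, the chemokine receptor of monocyte-derived cells, by 1.73 ± 0.18. Those that fell included Cd163 (-0.64 ± 0.12) and Timd4 (-0.73 ± 0.24), markers of resident macrophages. The call of Timd4 was lost in 6 of the 25 alternatives, among them that without the T497A sham group (adjusted p = 0.069). Complement genes rose in 14 of 21 cases and fell in 1 (13 higher and 1 lower without the T497A sham group), with C1qb at 0.78 ± 0.10 and the regulator Cd59a at -0.55 ± 0.04. The complement counts were 4 higher and 2 lower within T497A and 13 higher and 2 lower within WT. Those within T497A were not far from the shares of all genes under that label, 12.9% higher and 11.4% lower. Under WT the shares of all genes were 25.9% and 24%. Chemokines rose in 9 of 22 cases and fell in 4 (9 higher and 2 lower without the T497A sham group), with the monocyte attractants Ccl12 and Ccl2 at 1.65 ± 0.18 and 1.64 ± 0.26 and the eosinophil attractant Ccl11 at -1.23 ± 0.27. The chemokine falls were near the share over all genes (23.6%), of which 24.8% rose. The number of chemokines that fell was 2 without any 1 of T497A TAC 1, T497A TAC 2, T497A sham 3, WT TAC 3 or WT sham 2. Interferon-stimulated genes rose in 11 of 26 cases (14 higher and 0 lower without the T497A sham group), for example Mx1 (2.02 ± 0.35). Their summed level was 386 to 528 CPM in T497A TAC and 478 to 556 CPM in WT TAC, against 263, 331 and 746 CPM in T497A sham and 317 to 391 CPM in WT sham. T497A sham 1, at 746 CPM, was above every TAC library, and without that library 21 members rose. Of the defining markers of other blood cells, S100a8 for neutrophils, Cd3e for T cells and Cd79a for B cells were at or below 1.10 CPM in every library, and none was called.

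Endothelial markers rose in 12 of 20 cases and fell in 4, and without the T497A sham group the counts were 9 higher and 2 lower. Cd34 rose by 0.84 ± 0.05, the junction protein Cdh5 by 0.57 ± 0.06, and Aqp1 fell (-0.77 ± 0.09). Among angiogenic ligands and receptors 15 of 30 rose and 8 fell (11 higher and 6 lower without the T497A sham group), with the receptor Nrp2 at 1.01 ± 0.06 and the vessel-stabilising ligand Angpt1 at -1.15 ± 0.09. The falls in the endothelial and angiogenic lists were near the share over all genes (23.6%), of which 24.8% rose. Lysosomal genes rose in 20 of 34 cases and fell in 4 (20 higher and 4 lower without the T497A sham group), for example the cathepsins Ctsk (1.80 ± 0.15) and Ctsz (0.95 ± 0.08). Within T497A 5 lysosomal genes rose and 5 fell, whereas within WT 22 rose and 4 fell. Of all genes, 12.9% rose and 11.4% fell within T497A, and 25.9% rose and 24% fell within WT. Both lysosomal counts within T497A were thus near the shares over all genes. In the circadian list 9 of 19 fell, among them the output factor Tef (-0.57 ± 0.05), and 3 rose, with 5 higher and 5 lower without TMM factors and 1 higher and 7 lower without the T497A sham group. Markers of further cell types were counted in the same way. Mural and smooth muscle markers rose in 7 of 16 and fell in 2 (8 higher and 3 lower without the T497A sham group).

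The small lists of atrial, epicardial, lymphatic, Schwann, adipocyte and blood cells had counts that changed with the setting. For comparison, 24.8% of all genes rose and 23.6% fell. Atrial markers had 1 rise and 5 falls among 10, with 2 higher and 2 lower without the T497A sham group, 3 higher and 4 lower without TMM factors, and 2 to 5 lower over the 25 alternatives. T497A sham 3, the library with the most Myl7, was 1 of the libraries whose omission left 2 falls. Epicardial and mesothelial markers had 2 rises and 5 falls among 10, with 2 higher and 3 lower without the T497A sham group and 1 to 6 lower over the alternatives. Lymphatic endothelial markers had 2 rises and 4 falls among 7, with 2 higher and 2 lower both without the T497A sham group and without TMM factors. Schwann cell markers had 1 rise and 3 falls among 8, with 1 higher and 1 lower without the T497A sham group, and their median was -0.09, or 0.09 without TMM factors. Adipocyte markers had 0 rises and 1 fall among 9, with 0 higher and 1 lower without the T497A sham group and 5 lower without WT sham 3. Neutrophil markers had 1 rise and 1 fall among 7, with 2 higher and 0 lower without the T497A sham group and 0 to 2 lower over the alternatives. Lymphocyte markers had 1 rise and 0 falls among 14, with 1 higher and 0 lower without the T497A sham group. Erythrocyte markers had 1 rise and 0 falls among 7, with 0 higher and 0 lower without the T497A sham group and 3 higher without WT TAC 2.

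What the average is made of can be read from the same 12 libraries under each label, which adds no independent evidence. Within T497A 2290 genes were higher (12.9%) and 2025 lower (11.4%) after TAC, and within WT 4576 were higher (25.9%) and 4255 lower (24%). Macrophage markers rose in 8 cases within T497A and 18 within WT, and cytoskeletal genes in 14 and 24. In the citrate cycle and branched-chain lists 8 genes each fell within T497A, against 30 and 21 within WT. DNA replication genes rose in 27 cases within T497A and 25 within WT, and immediate early genes in 17 and 14. Of the 4383 genes that rose in the average, 1513 were called higher within both labels, 394 within T497A alone, 2157 within WT alone, and 281 within neither. Another 38 were called in opposite directions within the labels. Of the 4175 that fell, 1164 were called lower within both labels, 431 within T497A alone, 2257 within WT alone, 278 within neither, and 45 were called in opposite directions. The interaction was called for 1703 of the genes that rose, with a smaller change in T497A for 1492 of them, and for 1988 of those that fell, with a smaller change in T497A for 1781. These interaction counts depend on the scaling. Over all genes 2700 interactions were positive and 2518 negative with TMM factors, against 1175 and 5694 without them, and the median interaction was -0.012 with them and -0.31 without. Without TMM factors the interaction was positive for 94 and negative for 2552 of the genes that rose, and positive for 803 and negative for 777 of those that fell, so for genes that fell the excess of smaller changes in T497A was not seen without those factors.

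An average near 0 can also hide changes of opposite sign under the labels. Of the 9141 genes not called in the average, 361 were called in opposite directions within the labels. Gpr179, an orphan receptor, stood at 0.0455, 0.462 and 0.129 CPM in T497A TAC and 5.59, 2.44 and 5.72 CPM in WT TAC, against 8.43, 8.85 and 13.6 CPM in T497A sham and 0.205, 0.0734 and 0.135 CPM in WT sham. High levels lay in T497A sham and WT TAC, so the averaged change was -0.29 ± 0.49 while it was -5.60 ± 0.60 within T497A and 5.02 ± 0.64 within WT. Eno1b, Igsf23 and Tent5b had the same arrangement of groups, with averaged changes of 0.43 ± 0.29, 0.14 ± 0.30 and 0.32 ± 0.22. Whether such arrangements of whole groups come from the surgery or from other differences between the groups was not tested. Eno1b is close in sequence to Eno1, so its counts are uncertain. Sex-linked genes were called in the average through the T497A sham group, with Xist at -4.49 ± 0.24 and Ddx3y at 4.05 ± 0.11. Without that group Xist was at -0.42 (adjusted p = 0.37) and Ddx3y at -0.29 (adjusted p = 8.3e-04). Hba-a2, a haemoglobin chain with a near-identical copy and so of uncertain counts, was called higher (3.16 ± 0.86, adjusted p = 0.014) with 0 to 0.0666 CPM in T497A sham, and was not called without that group (-0.42, adjusted p = 0.71).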

How the data were processed

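Left ventricle RNA was sequenced in 12 libraries, 3 in each of 4 groups set by the labels. The values are raw counts per gene, deposited by the authors as 1 table whose 12 columns were all used. The submitters' processing notes name Trim Galore 0.6.4, STAR 2.7.3a, featureCounts of Subread 1.6.3 and limma 3.50.3, and the builds mm10 and GRCh38, without their roles. Per the labels' protocols, the library kit selects mRNA and reads were single-end. For the release of the gene models, for strandedness and for reads with several matches, the setting is not given in the sources used here, and counts of overlapping genes or near-identical copies are uncertain. Gene symbols and positions are those of GENCODE M21 (GRCm38): 55141 of the 55401 identifiers matched when versions were ignored, and 260 did not.

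Low genes were removed with filterByExpr by group. Counts were scaled with TMM and tested in edgeR 4.0.16 (R 4.3.3) by robust quasi-likelihood F tests with the 4 group means as coefficients, and p-values were Benjamini-Hochberg adjusted over all 17699 genes. The standard error is the absolute log2 fold change over the root of F. The interaction is the response in T497A minus that in WT. CPM, counts per 1e6 after TMM, are not corrected for gene length, so levels are compared only within a gene. Log2 CPM use a prior count of 2. The fits were first tested on simulated data. The comparison, the 50 gene lists (1093 genes) and the naming rules were chosen with earlier results of these data known. Named are 16 fixed genes, the 8 largest rises and 8 largest falls among genes that were called, averaged at least 1 CPM and did not overlap between surgeries, the 8 and 8 ranked by the smaller change of both labels, up to 4 members a list by smallest p, and 4 genes with changes of opposite sign under the labels. Further members, such as those that went against their list, were named after their values were seen. Not every gene that these rules name is reported here. No list was tested as such, and 15 list entries had too few counts. Within groups, chi-square per degree of freedom between libraries was 10.9 to 151, far above sampling noise. That spread does not show that the libraries are independent, and the excess of even counts described below was not allowed for in it. Each library was counted once. Correlations of log2 CPM were 0.980 to 0.990 within groups and 0.937 to 0.982 between them. The alternatives were DESeq2 1.42.0 (size factors, and its test), no TMM factors, limma 3.58.1 voom with quality weights, no filter or a stricter one, robust estimation off, a replicate block, autosomal protein-coding genes only, removal of mitochondrial, haemoglobin and rRNA genes, an additive model, no T497A sham group and each library left out. Counts divided by 2 were added after seeing the data.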

Additional observations from a re-analysis of the deposited data

Results flagged for a closer look

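Among the genes named here, 96 are listed because the response to TAC differed between the labels in the test of the interaction itself (edgeR quasi-likelihood, Benjamini-Hochberg over all genes, adjusted p from 1.3e-10 to 0.045). Over all genes the interaction was called for 29.5%, and for 38.8% without TMM factors. Without TMM factors all 96 kept the sign of the interaction and 85 its call; the 11 not called were Ryr2, Cngb3, Oxct1, Tuba4a, Nrp2, Tef, Gsn, Dut, Cpt1a, Ltbp1 and Mybpc3. Each value in parentheses is the interaction in log2 units, the response in T497A minus that in WT. The response in T497A is taken against T497A sham, the group that differed from the others in sex-linked transcripts.

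In the stress programme the interactions were those of Nppa (-3.69), Nppb (1.31), Ankrd1 (0.65), Furin (-0.47), Xirp2 (-0.54), Gdf15 (-1.91) and Myh7b (1.14). For contraction, calcium and excitation they were those of Myh6 (0.75), Tnni3 (0.83), Mybpc3 (0.43), Atp2a2 (0.58), Pln (0.72), Ryr2 (0.31), Hrc (1.01), Kcnj3 (0.79), Kcnj5 (0.74), Kcnv2 (1.99), Gnai2 (-0.28), Prkce (0.80) and Sbk3 (2.37). For matrix genes and their regulators they were mostly negative, with Col1a1 (-2.58), Col4a1 (-0.53), Col4a2 (-0.57), Col6a3 (-1.30), Col9a2 (-3.29), Postn (-3.04), Ccn2 (-2.42), Pcolce (-1.42), Bmp1 (-1.24), Adamts2 (-1.44), Loxl2 (-1.13), Sparc (-1.69), Fbn1 (-0.93), Fbln1 (-1.23), Mmp2 (-1.21), Timp3 (-0.77), Tgfb2 (-1.09) and Pdgfra (-0.54), and positive for P3h4 (0.87), Ltbp1 (0.44) and Gsn (0.75). For metabolism they were mostly positive, with Cpt1b (1.00), Cpt1a (0.49), Eci1 (1.24), Slc25a20 (1.14), Hadha (1.20), Cox7a1 (0.92), Idh3g (0.59), Bckdhb (1.07), Oxct1 (0.40), Pygm (0.81), Pfkm (0.76), Pfkfb1 (2.61), Slc2a4 (0.70) and Ces1d (2.67), and negative for Cox6a1 (-0.32), Pdk3 (-1.26), Bcat1 (-1.55), Slc16a3 (-1.90) and Pfkp (-0.99).

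For growth, stress and protein synthesis the values were Egr1 (1.15), Jun (0.76), Ccnd1 (1.75), Dut (0.41), Aldh18a1 (-0.47), Slc7a5 (-0.64), Gstm1 (0.91), Gsta3 (-0.80), Gpx1 (-0.68), Eif2ak3 (-0.61), Hspd1 (0.64), Rpl3l (1.18), Rpl3 (-0.65), Tuba4a (0.53) and Tubb4b (-0.74). For immune, vascular and lysosomal genes they were C1qb (-0.91), Trem2 (-1.48), Ccr2 (-1.03), Ccl11 (2.88), Retnla (1.67), Nrp2 (0.59), Cd34 (-0.46), Aqp1 (0.89), Ctsz (-1.23) and Ctsk (-1.93). Further values were those of Serpinb1c (-2.77), Ppl (2.40), Tef (0.41) and Cngb3 (1.08). The genes with changes of opposite sign under the labels gave Gpr179 (-10.63), Eno1b (-8.31), Igsf23 (-5.60) and Tent5b (-5.22). Xist (-8.30), Ddx3y (8.88) and Hba-a2 (8.36) follow the T497A sham group, in which they stood apart from the other sham libraries.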

How the results depend on the processing

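The counts of genes that rose and fell in the average stayed within 1.5 times the reported ones under every alternative run but 1. Without TMM factors 7216 genes rose and 2112 fell, so that 77.4% of calls were rises, against 51.2% with them. In WT alone those counts were 8466 and 1891, and 696 genes had all 6 TAC libraries below all sham libraries. The interaction was then positive for 1175 genes and negative for 5694, against 2700 and 2518. Leaving out a library gave 3963 to 4328 rises and 3825 to 4094 falls in the average. In T497A alone it gave 1251 to 2467 falls, the lowest without T497A TAC replicate 2. With a replicate block 4250 genes rose and 4043 fell. The labels state no pairing of samples by number. Deviations of libraries with the same number correlated at -0.113 to 0.0742, with 0 of 18 pairs over 0.1. These values were not set against those of differently numbered libraries, so they cannot exclude a pairing. Without the T497A sham group the averaged log2 fold change turned round for Ddx3y (-0.29), Gpr179 (2.81), Hba-a2 (-0.42), Timp3 (0.022), Cd3e (-0.067) and Cd79a (-0.22), and without TMM factors for Cox8a (0.14), Cpt1a (0.094) and Npr2 (0.068). Without TMM factors the calls of Fbln1 (-0.23), Fhl2 (-0.18), Furin (-0.11), Npr3 (-0.44), Timd4 (-0.56) and Timp3 (-0.03) were lost, and under the additive model those of Bcat1, Ccl11, Ddx3y, Fbln1, Fkbp1b, Hba-a2, Mybpc3, Myl7, Npr2, Pdgfra, Timd4 and Timp3. With limma voom Cd79a was at -0.010. Over the libraries left out, Cd3e ranged from -0.12 to 0.59, Cd79a from -0.21 to 0.33, S100a8 from -0.22 to 0.45 and Igsf23 from -0.0061 to 0.49. The cause was not tested. The depth of 58932759 to 72594085 counts limits genes near 1 CPM, as for S100a8, Cd3e and Cd79a, whose levels allow no direction.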

Other observations

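The deposited counts hold more even than odd numbers. In each library 65.6 to 67.9% of the genes with 1 to 20 counts had an even count. Genes with 2 counts (1785 to 1959 per library) outnumbered those with 1 count (917 to 1015). Among genes with 100 to 1000 counts the even share was 53.5 to 55.6%. The pattern was present in all 12 libraries, and its source was not tested. With all counts divided by 2, 8518 genes were called in the average, against 8558 as deposited.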
